A study of Mus musculus musculus x M. m. domesticus and Mus musculus domesticus and Mus musculus with 12 samples.

Results

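The genes described here were those lowest in the testis of sterile *MxD* hybrid males. A gene was taken when its highest value among the 3 *MxD* males lay at least 0.2 log2 units below its lowest value among the 9 fertile males, a difference called the gap below. Genes with a testis cell type in the first 1997 rows of the study's cell type table were left out. So were genes in its short table of 45 sterility-correlated genes. Cell types beyond those rows were not looked up. The rule kept 47 of 7000 genes, after 12 of the 59 genes past the gap had been removed. Because the genes were selected on these 12 measured values, their low level in *MxD* is a description and carries no test.

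Expression was measured in whole testis of 12 male house mice aged 60 days, 3 of each of 4 genotypes, with 1 Affymetrix Mouse Genome 430 2.0 array per male. All males were first-generation offspring of wild-derived inbred strains, with the mother's strain named first. *DxD* males came from LEWES/EiJ x WSB/EiJ within *M. domesticus*, and *MxM* males from PWK/PhJ x CZECHII/EiJ within *M. musculus*. The reciprocal hybrids were the fertile *DxM* (LEWES/EiJ x PWK/PhJ) and the sterile *MxD* (PWK/PhJ x LEWES/EiJ). No male was treated, and each genotype stands for a single combination of strains. *DxD* and *MxM* each share only 1 strain with the hybrids and are not their parents. The p-values below measure only the spread between males of these crosses. The array's probes follow a laboratory mouse genome that is mostly *M. domesticus*, so they may match *M. musculus* transcripts less well. The paper judged such probe effects not to be a major factor in its comparison of the species. Their part in the differences between genotypes described below was not tested.

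In a seminiferous tubule, mitotic spermatogonia give rise to meiotic spermatocytes, and these to postmeiotic spermatids, all of them supported by somatic Sertoli cells. The reciprocal hybrids carry the same autosomal combination but exchange the parental origin of the X and Y chromosomes: the X of *MxD* is from *M. musculus* and that of *DxM* from *M. domesticus*. Levels in whole testis depend on both the RNA per cell and the cells present, and fewer cells of a type cannot be told apart from less RNA per cell. In the authors' account of the histology, *MxD* testes had few postmeiotic cells. The files identify genes by Ensembl number only and do not pair these numbers with names, so genes are described by the rank of their gap and no function is given. The labelled tissue was not checked against named markers. The 4 cell classes come from the study's own list of testis-expressed genes, so their presence among the 7000 is no check of the tissue. By its methods, a class names the cell population in which a gene was most induced. It need not mean expression in that population alone.

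Of all 7000 genes, 390 (5.57%) had their 3 *MxD* values below the other 9 with no overlap, and 59 (0.843%) by at least 0.2. The same count at 0.2 was 190 (2.71%) for *DxD*, 137 (1.96%) for *MxM* and 6 (0.0857%) for *DxM*. Genes set apart by a low level were thus fewer for the sterile hybrid than for either species and more than for the fertile hybrid, and at a gap of 0.5 the counts were 2, 55, 50 and 1 for *MxD*, *DxD*, *MxM* and *DxM*. No test was made of these counts. Among the rows of the annotation used, 8 of 269 postmeiotic genes (2.97%) passed the gap and were removed for their cell type, as were 2 of 324 meiotic genes (0.617%) and 1 of 367 mitotic genes (0.272%). None of 142 somatic genes passed. Of the 895 genes in those rows with no cell type, 5 (0.559%) passed and were kept. The other 42 of the 47 genes came from 4963 genes outside both those rows and the table of 45 genes (0.846%). For these 42 no cell type was looked up, so that postmeiotic genes may be among them. A chromosome was stated for 5 of the 47: chromosome 1 for 1 gene, chromosome 2 for 3 genes and chromosome 4 for 1 gene. These came from the rows used, whose genes were almost all autosomal. Whether any of the other 42 genes is X-linked was not known.

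**Figure D1:**
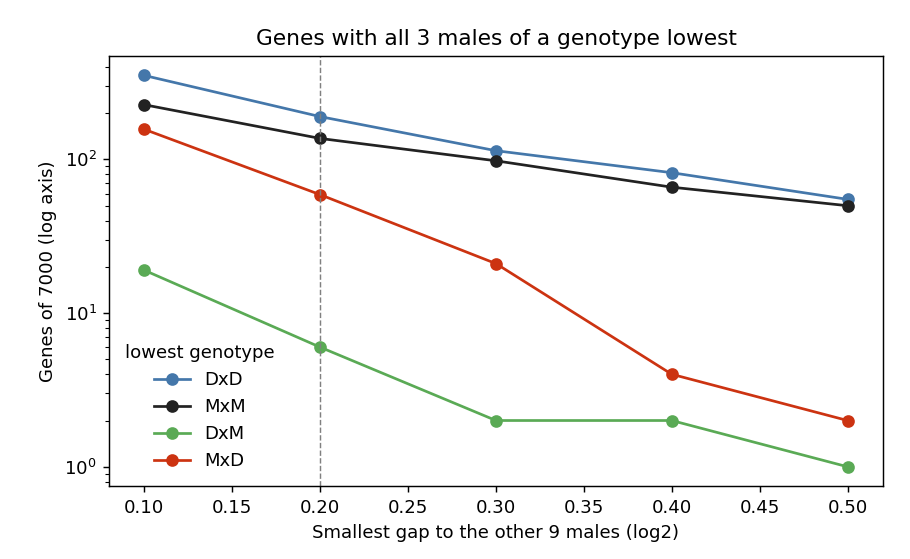
Number of the 7000 genes (log axis) in which all 3 males of a genotype lay below the other 9 males by at least the gap on the horizontal axis, in log2 units. At the gap of 0.2 used here (dashed line) the counts were 59 for *MxD*, 190 for *DxD*, 137 for *MxM* and 6 for *DxM*.

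The gap ran from 0.20 to 0.70 with a median of 0.28 log2 units, and 18 of the 47 genes had a gap of at least 0.3. The mean of the 9 fertile males exceeded the *MxD* mean by 0.40 to 1.31 on the log2 scale, with a median of 0.61, which is 1.53-fold. At least 1.5-fold lower levels were found in 28 genes and at least 2-fold lower levels in 3, those ranked 1, 2 and 20. The 3 genes just inside the threshold had gaps of 0.205, 0.205 and 0.202, and the 3 just outside had 0.196, 0.195 and 0.194. The values ran on across this line without a break. The 3 *MxD* values of a gene spanned 0.03 to 0.49 with a median of 0.21, and in 34 genes the gap was wider than this span. The mean level in fertile testis was 5.12 to 10.36 on the log2 intensity scale, with a median of 7.66 against 8.12 over all genes. When all genes were split by this fertile level into 4 equal classes, 17 of the 47 fell in the dimmest, then 15, 12 and 3 in the brightest.

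**Figure D2:**
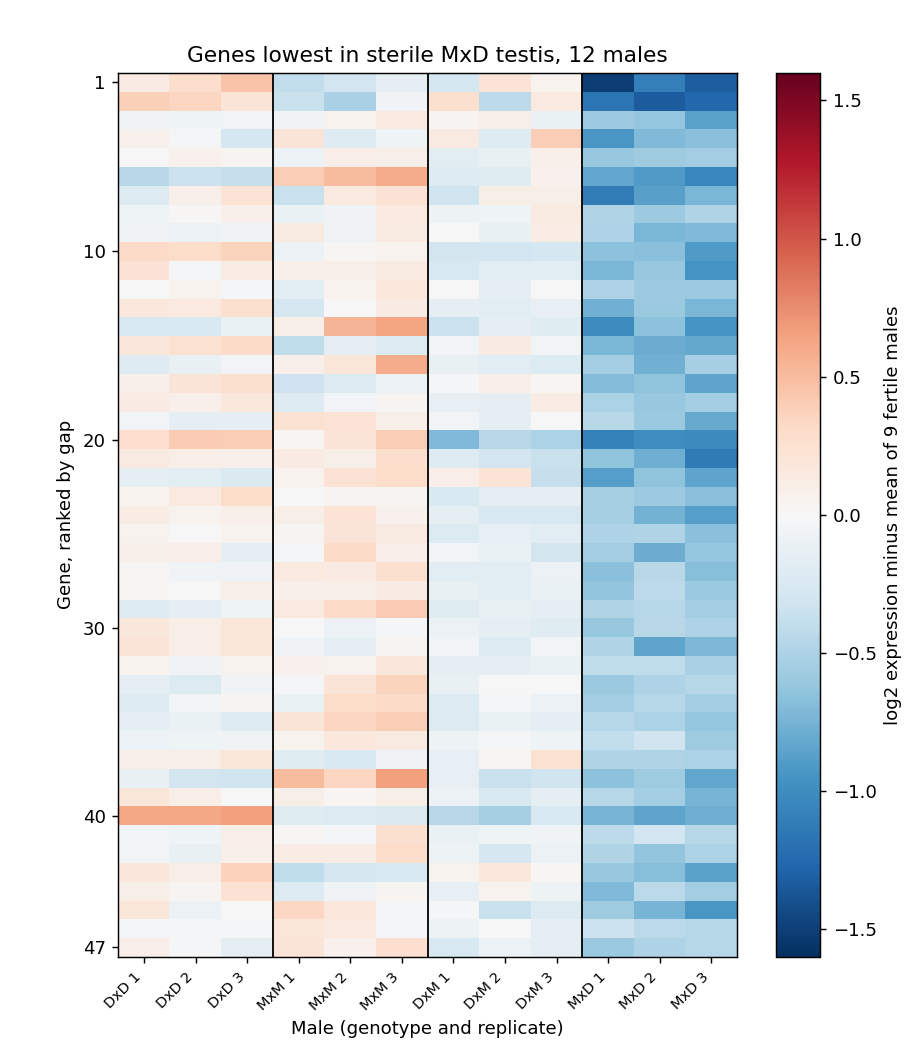
Each row is 1 of the 47 genes, ranked by gap, and each column 1 male; colour gives the log2 value minus the mean of the 9 fertile males. The 3 *MxD* columns are blue throughout, and the *DxM* columns are mostly pale blue, while *DxD* and *MxM* vary from gene to gene.

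The gene with the widest gap, ENSMUSG00000023882, had log2 values of 5.74, 6.16 and 5.93 in the *MxD* males. Its values were 7.38, 7.53 and 7.71 in *DxD*, 6.86, 6.94 and 7.10 in *MxM*, and 6.97, 7.47 and 7.31 in *DxM*. The fertile genotypes overlapped in part, with every *DxD* male above every *MxM* male, and the *MxD* mean was 2.48-fold below the fertile mean. The second gene, ENSMUSG00000044034, had 5.70, 5.54 and 5.61 in *MxD*. It had 7.25, 7.22 and 7.08 in *DxD*, 6.51, 6.35 and 6.81 in *MxM*, and 7.13, 6.45 and 7.03 in *DxM*. A single *DxM* male lay with the *MxM* males and the other two with *DxD*, and the fold below the fertile mean was 2.39. Both genes were also among those that differed between the species, as described below.

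Other genes near the top of the ranking had nearly level fertile genotypes. The gene ranked 3 had 7.60, 7.56 and 7.32 in *MxD* against 8.12, 8.11 and 8.13 in *DxD*, 8.12, 8.24 and 8.34 in *MxM*, and 8.22, 8.28 and 8.07 in *DxM*. The gene ranked 8 had 8.86, 8.76 and 8.86 in *MxD* against 9.27, 9.36 and 9.42 in *DxD*, 9.23, 9.28 and 9.50 in *MxM*, and 9.26, 9.27 and 9.48 in *DxM*. The gene ranked 12 had 8.84, 8.76 and 8.76 in *MxD* against 9.34, 9.40 and 9.31 in *DxD*, 9.17, 9.40 and 9.51 in *MxM*, and 9.34, 9.19 and 9.35 in *DxM*. In each of these the 9 fertile males overlapped across genotypes and the sterile males stood alone, 1.61-fold, 1.43-fold and 1.46-fold lower. The gene ranked 5 showed the same arrangement, with 7.10, 7.14 and 7.15 in *MxD*. Its fertile males had 7.70, 7.78 and 7.76 in *DxD*, 7.61, 7.82 and 7.80 in *MxM*, and 7.54, 7.59 and 7.79 in *DxM*.

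The gene ranked 9 had 7.53, 7.29 and 7.31 in *MxD* against 7.96, 7.92 and 7.96 in *DxD*, 8.16, 7.96 and 8.16 in *MxM*, and 8.01, 7.90 and 8.14 in *DxM*. The gene ranked 18 had 7.15, 7.05 and 7.12 in *MxD* against 7.79, 7.74 and 7.83 in *DxD*, 7.46, 7.61 and 7.70 in *MxM*, and 7.53, 7.51 and 7.78 in *DxM*. The fertile hybrid overlapped both species in the former, and in the latter it overlapped both while every *DxD* male was above every *MxM* male. The gene ranked 22 had 5.80, 6.03 and 5.83 in *MxD* against 6.53, 6.51 and 6.45 in *DxD*, 6.73, 6.91 and 6.97 in *MxM*, and 6.79, 6.90 and 6.31 in *DxM*. Its gap was set by a single low *DxM* male, the other two lying with *MxM*.

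In the gene ranked 7 the males of every genotype were widely spread. It had 6.87, 7.12 and 7.26 in *MxD*, 7.77, 8.07 and 8.21 in *DxD*, 7.64, 8.15 and 8.22 in *MxM*, and 7.67, 8.08 and 8.09 in *DxM*. Replicate 1 was the lowest male of each genotype. The gene ranked 4 was the only 1 of the 47 in which the *DxM* mean lay above both species, with 6.50, 6.16 and 6.75 in *DxM*. It had 6.43, 6.34 and 6.08 in *DxD*, 6.57, 6.15 and 6.29 in *MxM*, and 5.43, 5.65 and 5.69 in *MxD*. The 3 fertile genotypes overlapped one another in this gene, and none of their contrasts passed limma's adjusted threshold.

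**Figure D3:**
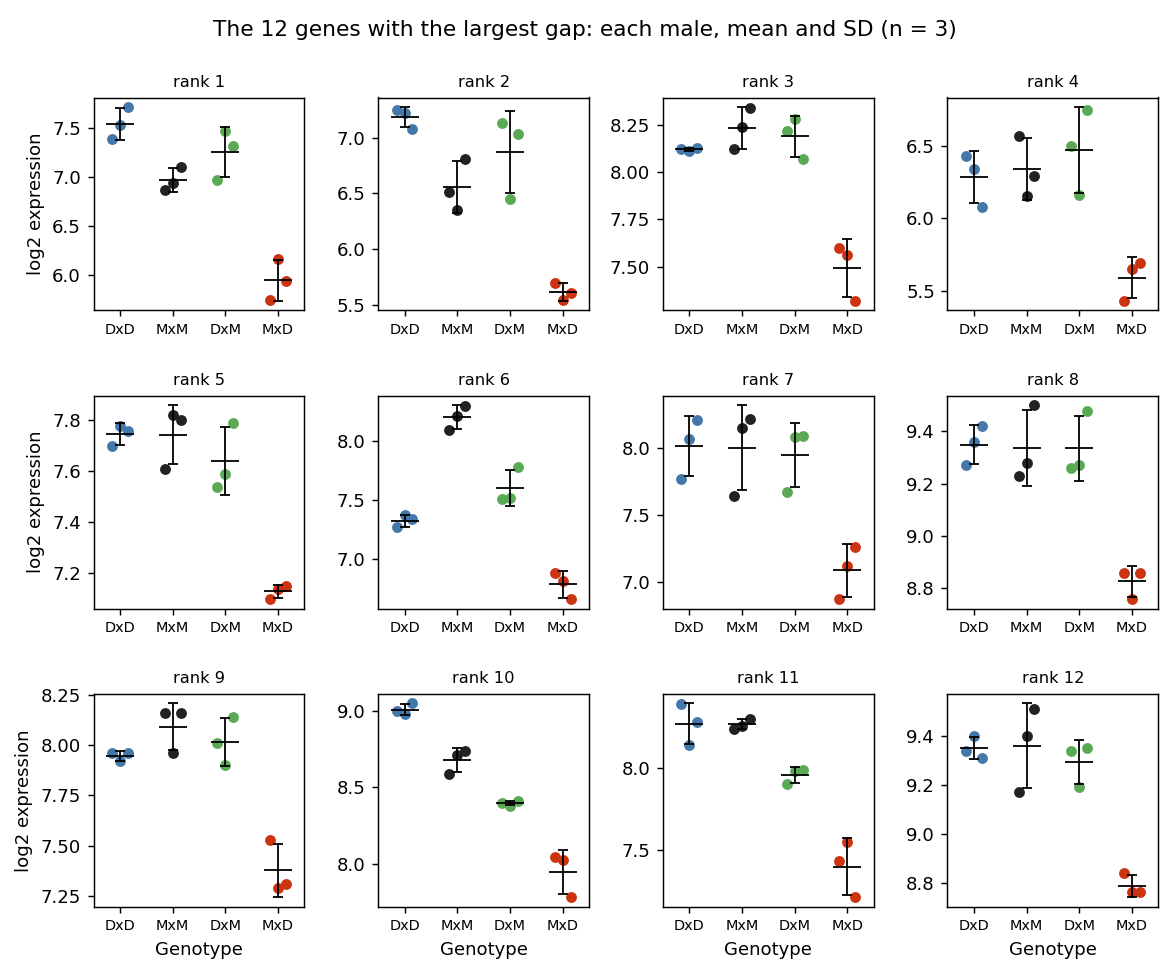
Log2 expression of the 12 genes with the widest gap, 1 panel each; points are the 3 males of a genotype, and bars give the mean and SD (n = 3). Every *MxD* point lies below every fertile point, while the order of *DxD*, *MxM* and *DxM* differs from panel to panel.

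The males that set the gap were unevenly distributed. The lowest of the 9 fertile males was a *DxM* male in 30 of the 47 genes, an *MxM* male in 12 and a *DxD* male in 5. The highest *MxD* male was replicate 1 in 24 genes, replicate 2 in 17 and replicate 3 in 6, where over all 7000 genes these males were highest of the 3 in 33.4%, 34.7% and 31.9%. The extent of the set therefore rested on *MxD* replicates 1 and 2, and the rule found 112 genes without the former and 90 without the latter, against 53 without replicate 3. Leaving out a male cannot narrow a gap, so none of these counts could fall below 47. One fertile array stood apart in the whole series: *MxM* replicate 3 was at least 1 log2 unit below all other males in 131 genes. None of the 47 was among them, and in 34 of the 47 this male was the highest of the 3 *MxM* males (72.3%, against 54.0% of all genes).

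Each male was also summarised by the median, over the 47 genes, of its deviation from the 12-male median of each gene. The *MxD* males had -0.49, -0.51 and -0.59 log2 units, which the rule fixes to be lowest. The *DxD* males had 0.14, 0.09 and 0.14, the *MxM* males 0.12, 0.16 and 0.20, and the *DxM* males -0.04, -0.04 and 0.00. The *DxM* males were thus the lowest of the fertile males, without overlap. As linear intensity summed over the 47 genes, the *MxD* males had 61.5% to 65.6% of the mean of the fertile males, and the *DxM* males 90.6% to 94.1%.

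Cell type genes in the rows of the study's annotation used here also differed in the sterile genotype. These were the first 1997 rows, a part of the annotation, and their genes were almost all autosomal. The paper reported that most X-linked postmeiotic genes among its sterility-correlated genes were over-expressed in *MxD*, and the sets below do not represent those genes. The *MxD* mean was the lowest of the 4 genotype means in 186 of 269 postmeiotic genes (69.1%), 115 of 324 meiotic genes (35.5%), 19 of 367 mitotic genes (5.18%) and 29 of 142 somatic genes (20.4%), against 27.8% of all genes. It was the highest in 231 of the mitotic genes (62.9%) and 61 of the somatic genes (43.0%), against 27.2% of all genes. The median deviation of the postmeiotic genes was -0.16 ± 0.05 in *MxD* (SD, n = 3 males) and 0.02 to 0.06 in the fertile genotypes. Their summed level in the *MxD* males was 87.4% to 92.2% of the fertile mean. The summed level of mitotic genes was 119% to 127% in *MxD*, and that of somatic genes 109% to 116%. The 47 genes were therefore lower in *MxD* by more than the median postmeiotic gene, as the rule requires of them, and the part of these shifts of cell type genes in their levels was not tested. In *DxM*, where the median deviation of the 47 genes was below that of either species, the postmeiotic genes were at 99.3% to 101% of the fertile mean, the meiotic genes at 98.2% to 100%, the mitotic genes at 103% to 107% and the somatic genes at 98.6% to 104%.

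**Figure D4:**
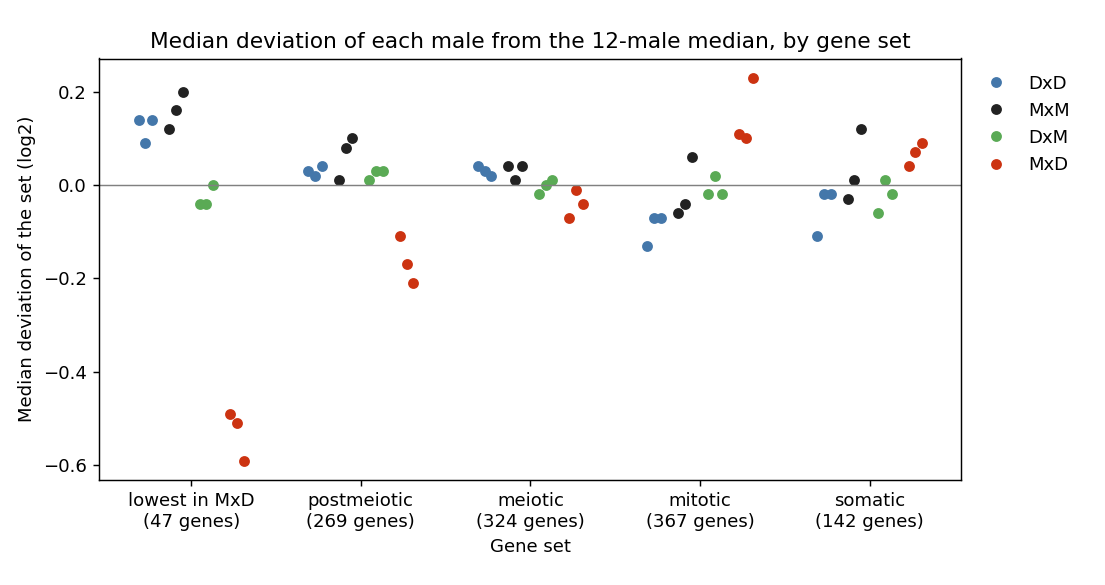
Median over a gene set of each male's deviation from the 12-male median (log2), for the 47 genes and for postmeiotic, meiotic, mitotic and somatic genes. These cell type genes are those in the rows of the study's annotation used here, almost all autosomal. For the 47 genes the *MxD* males lie at -0.49 to -0.59 and the *DxM* males at -0.04 to 0.00, below all *DxD* and *MxM* males; postmeiotic genes are low and mitotic genes high in *MxD*.

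The 9 fertile males were also compared with each other. The rule used the lowest of their values, which was a *DxM* male's in most genes, so these contrasts are not independent of the choice of genes. The shares of all genes printed beside the counts come from genes not chosen in this way and are no expectation for the 47, and the p-values describe single genes. The spread within each genotype was also smaller in the 47 genes. Their median SDs in *DxD*, *MxM*, *DxM* and *MxD* were 0.066, 0.117, 0.088 and 0.11, against 0.08, 0.149, 0.106 and 0.123 over all genes. Since limma uses this spread, the counts of called genes depend on the choice of genes in this respect too. A low *DxM* level recurred among the 47 genes. The *DxM* mean lay below both species means in 31 of them (66.0%), between them in 15 (31.9%) and above both in 1 (2.13%), where the shares among all 7000 genes were 25.4%, 52.0% and 22.6%. In 12 genes (25.5%) every *DxM* male was below every *DxD* and *MxM* male, against 4.79% of all genes. By this measure the fertile hybrid was below the lower species mean by 0.13 to 0.76 log2 units in these 12 genes, with a median of 0.22, and the sterile hybrid was a further 0.31 to 0.56 below the fertile hybrid, with a median of 0.44.

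Against *DxD*, *DxM* was lower in 8 of the 47 genes (17.0%) and higher in 0 by limma with a Benjamini-Hochberg adjusted p under 0.05, against 6.21% of all genes lower and 5.84% higher. The labels do not say what replicate numbers mean, and pairing of these males was presumed only from correlated deviations. With a replicate block shared by the males of all genotypes, 13 of the 47 were lower (27.7%) and 0 higher, against 11.7% and 10.9% of all genes. At an unadjusted p under 0.05, 16 genes differed in either direction (34.0%, against 25.5% of all genes). The median difference was -0.14 log2 units in the 47 genes and 0.002 over all genes. Which males were in the fit mattered: the count of 8 became 4 or 5 without any 1 of the *DxD* or *DxM* males (4 without *DxD* replicate 3 or *DxM* replicate 3), and 5 without *MxM* replicate 2.

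Against *MxM*, *DxM* was lower in 17 of the 47 genes (36.2%) and higher in 2 (4.26%), those ranked 15 and 43, by the same limma test at an adjusted p under 0.05, against 10.4% of all genes lower and 6.51% higher. The median difference was -0.22 log2 units, and -0.018 over all genes. The count of 19 in both directions became 11, 10 and 11 without *DxM* replicate 1, 2 and 3, and 8 when only these 2 genotypes were fitted. These contrasts share the *DxM* males, so that their counts are not independent. Both were called lower in *DxM* in 4 genes (8.51%), those ranked 10, 11, 20 and 21, against 1.26% of all genes. With the replicate block for the contrast with *DxD*, the genes ranked 24 and 25 were added, which made 6 (12.8%, against 1.87% of all genes).

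**Figure D5:**
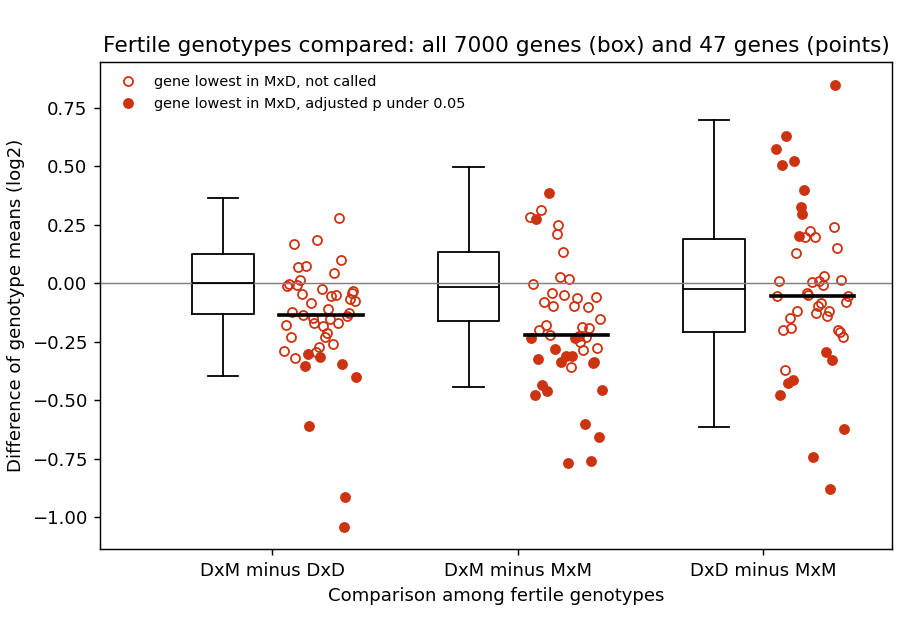
Differences of genotype means (log2) among the fertile genotypes, for all 7000 genes (box: quartiles and median; whiskers: 5th and 95th percentiles) and for the 47 genes (points; filled where limma's adjusted p was under 0.05; bar: median). The medians of the 47 genes were -0.14 for *DxM* minus *DxD*, -0.22 for *DxM* minus *MxM* and -0.05 for *DxD* minus *MxM*.

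The gene ranked 20 had the clearest graded order. It had 6.56, 6.70 and 6.68 in *DxD*, 6.32, 6.49 and 6.68 in *MxM*, 5.58, 5.85 and 5.78 in *DxM*, and 5.21, 5.29 and 5.27 in *MxD*. The species overlapped, both hybrids were below them, and the sterile hybrid was below the fertile. *DxM* was lower than *DxD* by -0.91 ± 0.10 (SE; limma adjusted p = 1.7e-04) and than *MxM* by -0.76 ± 0.10 (limma adjusted p = 5.3e-04). The gene ranked 10 fell in steps from *DxD* (9.0, 8.98 and 9.05) to *MxM* (8.59, 8.71 and 8.74), *DxM* (8.40, 8.38 and 8.41) and *MxD* (8.04, 8.02 and 7.78). No neighbouring genotypes overlapped in it, and limma gave -0.61 ± 0.08 for *DxM* minus *DxD* (adjusted p = 5.1e-04) and -0.28 ± 0.08 for *DxM* minus *MxM* (adjusted p = 0.028).

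In the genes ranked 11 and 21 the species were alike and the hybrids were below them. The gene ranked 11 had 8.39, 8.14 and 8.28 in *DxD*, 8.24, 8.26 and 8.30 in *MxM*, 7.90, 7.98 and 7.99 in *DxM*, and 7.43, 7.55 and 7.21 in *MxD*. The gene ranked 21, on chromosome 2, had 7.93, 7.89 and 7.86 in *DxD*, 7.91, 7.87 and 8.06 in *MxM*, 7.58, 7.47 and 7.43 in *DxM*, and 7.14, 7.0 and 6.65 in *MxD*. The limma differences of *DxM* from *DxD* and *MxM* were -0.32 (adjusted p = 0.047) and -0.31 (adjusted p = 0.040) for the former, and -0.40 (adjusted p = 0.038) and -0.45 (adjusted p = 0.017) for the latter. The gene ranked 23, also on chromosome 2, had 5.56, 5.65 and 5.79 in *DxD*, 5.51, 5.54 and 5.55 in *MxM*, 5.25, 5.34 and 5.35 in *DxM*, and 4.97, 4.92 and 4.83 in *MxD*. Its *DxM* males were below all males of both species, with limma differences of -0.35 from *DxD* (adjusted p = 0.0088) and -0.22 from *MxM* (adjusted p = 0.058).

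The brightest gene with this order was that ranked 28, with 10.39, 10.37 and 10.45 in *DxD*, 10.44, 10.45 and 10.49 in *MxM*, 10.24, 10.19 and 10.25 in *DxM*, and 9.73, 9.94 and 9.77 in *MxD*. The gene ranked 24 had 7.84, 7.78 and 7.80 in *DxD*, 7.81, 7.94 and 7.79 in *MxM*, 7.58, 7.48 and 7.46 in *DxM*, and 7.19, 6.96 and 6.84 in *MxD*. The gene ranked 25 had 8.52, 8.46 and 8.52 in *DxD*, 8.51, 8.67 and 8.61 in *MxM*, 8.24, 8.33 and 8.28 in *DxM*, and 7.97, 7.98 and 7.79 in *MxD*. In these 3 the fertile hybrid was separated from both species by less than it was from the sterile hybrid. Their differences from *MxM* were -0.23, -0.34 and -0.31 and passed limma's adjusted threshold (adjusted p = 0.035, 0.024 and 0.013), whereas those from *DxD* were -0.18, -0.30 and -0.21 and did not (adjusted p = 0.12, 0.052 and 0.083). With the replicate block the latter 2 genes, ranked 24 and 25, passed against *DxD* as well (limma adjusted p = 0.021 and 0.045), and that ranked 28 did not (0.067). The remaining genes with every *DxM* male below both species were those ranked 27, 32, 39 and 40.

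Between the species, 17 of the 47 genes differed by limma at an adjusted p under 0.05 (36.2%, against 31.9% of all genes). Of these, 9 were higher in *DxD* (19.1%, against 14.0% of all genes) and 8 higher in *MxM* (17.0%, against 17.8%). The median difference without its sign was 0.20 log2 units in the 47 genes and 0.20 over all genes. The share of genes differing between the species was thus near that of all genes, and the called genes were divided almost evenly between the directions. With the 25% of genes of lowest mean over all 12 males removed, 28 of the 47 remained and 8 of these were called (28.6%, against 30.5% of the genes left).

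Among the 9 genes higher in *DxD*, the largest difference was that of ENSMUSG00000024209, ranked 40. It had 9.39, 9.39 and 9.43 in *DxD*, 8.57, 8.55 and 8.54 in *MxM*, 8.32, 8.24 and 8.52 in *DxM*, and 8.03, 7.93 and 7.99 in *MxD*. *DxD* was far above the other 3 genotypes, which followed in steps without overlap. The limma difference of *DxD* from *MxM* was 0.85 ± 0.08 (SE; adjusted p = 8.8e-06), and that of *DxM* from *DxD* was -1.04 ± 0.08 (adjusted p = 6.3e-06). Its *DxM* males were below every *MxM* male, but the difference of -0.19 ± 0.08 did not pass limma's threshold (adjusted p = 0.11). Next came the first and second genes of the ranking, ENSMUSG00000044034 with 0.63 ± 0.16 (limma adjusted p = 0.012) and ENSMUSG00000023882 with 0.57 ± 0.14 (limma adjusted p = 0.010).

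Over the 9 genes higher in *DxD*, the *DxM* mean differed from the *DxD* mean by -1.04 to -0.08, with a median of -0.29, and from the *MxM* mean by -0.28 to 0.39, with a median of 0.25. These contrasts share the *DxM* males, which lay on either side of *MxM*. The genes ranked 15 and 43 were the only ones of the 47 that were called higher in *DxM* than in *MxM*. The gene ranked 15 had 9.57, 9.63 and 9.70 in *DxD*, 8.98, 9.25 and 9.17 in *MxM*, 9.35, 9.52 and 9.35 in *DxM*, and 8.66, 8.60 and 8.57 in *MxD*. The gene ranked 43 had 7.72, 7.65 and 7.91 in *DxD*, 7.14, 7.27 and 7.30 in *MxM*, 7.60, 7.71 and 7.56 in *DxM*, and 6.93, 6.86 and 6.68 in *MxD*. The *DxM* mean differed from the *DxD* mean by -0.23 in the gene ranked 15, near the middle of the species, and by -0.14 in that ranked 43, nearer to *DxD*. In both, *MxM* was the lowest fertile genotype, so the rule itself placed the sterile males nearest to it. The limma differences of *DxM* from *MxM* were 0.28 ± 0.08 (adjusted p = 0.044) and 0.39 ± 0.09 (adjusted p = 0.016). The gene ranked 17 had the same order of means, with 8.86, 8.99 and 9.04 in *DxD*, 8.45, 8.56 and 8.69 in *MxM*, 8.75, 8.89 and 8.81 in *DxM*, and 8.09, 8.14 and 7.94 in *MxD*. Its *DxM* males overlapped those of *DxD* and lay above all *MxM* males, but the difference of 0.25 from *MxM* was not called by limma (adjusted p = 0.074).

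Among the 8 genes higher in *MxM*, the *DxM* mean differed from the *DxD* mean by -0.05 to 0.28, with a median of -0.01. None of these differences passed limma's adjusted threshold, but only 12.1% of all genes did in this contrast. The place of *DxM* among all genes higher in *MxM* was not computed, so its place here cannot be called particular to the 8. From the *MxM* mean it differed by -0.77 to -0.23, with a median of -0.47. Both contrasts share the *DxM* males. The most divergent was ENSMUSG00000056752, ranked 6, with 7.27, 7.37 and 7.34 in *DxD*, 8.10, 8.22 and 8.30 in *MxM*, 7.51, 7.52 and 7.78 in *DxM*, and 6.88, 6.81 and 6.66 in *MxD*. Here no genotype overlapped another, and *MxM* was the highest. The limma difference of *DxD* from *MxM* was -0.88 ± 0.09 (adjusted p = 3.4e-05), that of *DxM* from *MxM* -0.60 ± 0.09 (adjusted p = 0.0015), and that of *DxM* from *DxD* 0.28 ± 0.09 (adjusted p = 0.080).

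In the remaining genes higher in *MxM* the fertile hybrid was near the level of *DxD*. The gene ranked 38 had 6.83, 6.66 and 6.63 in *DxD*, 7.46, 7.29 and 7.61 in *MxM*, 6.82, 6.60 and 6.63 in *DxM*, and 6.29, 6.38 and 6.12 in *MxD*. Its limma difference of *DxM* from *MxM* was -0.77 ± 0.10 (adjusted p = 6.3e-04). The gene ranked 14 had 7.18, 7.18 and 7.31 in *DxD*, 7.52, 7.97 and 8.05 in *MxM*, 7.08, 7.26 and 7.23 in *DxM*, and 6.41, 6.76 and 6.48 in *MxD*. In both genes the *DxD* and *DxM* males overlapped, *MxM* was above them and *MxD* below. The gene ranked 35 had 7.01, 7.05 and 6.96 in *DxD*, 7.37, 7.51 and 7.56 in *MxM*, 6.94, 7.05 and 7.02 in *DxM*, and 6.71, 6.65 and 6.54 in *MxD*. The gene ranked 29, on chromosome 1, had 7.38, 7.45 and 7.52 in *DxD*, 7.74, 7.90 and 8.0 in *MxM*, 7.40, 7.47 and 7.45 in *DxM*, and 7.11, 7.13 and 7.05 in *MxD*. These repeated the order of the gene ranked 38 at a smaller scale.

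Dim genes were found in this group too. The gene ranked 16 had 5.26, 5.34 and 5.41 in *DxD*, 5.54, 5.65 and 6.05 in *MxM*, 5.34, 5.29 and 5.24 in *DxM*, and 4.91, 4.69 and 4.93 in *MxD*. The gene ranked 19 had 5.61, 5.52 and 5.52 in *DxD*, 5.90, 5.88 and 5.76 in *MxM*, 5.61, 5.51 and 5.66 in *DxM*, and 5.22, 5.07 and 4.85 in *MxD*. *DxD* and *DxM* overlapped in both, and limma gave -0.46 (adjusted p = 0.023) and -0.25 (adjusted p = 0.088) for *DxM* minus *MxM*. The dim gene ranked 13 differed between *DxM* and *DxD* instead, with 5.98, 5.97 and 6.07 in *DxD*, 5.54, 5.82 and 5.94 in *MxM*, 5.67, 5.63 and 5.68 in *DxM*, and 5.04, 5.21 and 5.08 in *MxD*. Its *DxM* males were within the range of *MxM* and below *DxD* by -0.34 ± 0.10 (limma adjusted p = 0.038).

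The gene ranked 33, the last of the 3 on chromosome 2, belonged to the same group, with 6.33, 6.27 and 6.43 in *DxD*, 6.47, 6.70 and 6.85 in *MxM*, 6.37, 6.48 and 6.49 in *DxM*, and 5.90, 5.99 and 6.03 in *MxD*. The gene ranked 30, on chromosome 4, had 6.72, 6.65 and 6.73 in *DxD*, 6.54, 6.44 and 6.52 in *MxM*, 6.45, 6.40 and 6.35 in *DxM*, and 5.93, 6.10 and 6.04 in *MxD*. *DxM* overlapped *MxM* in the latter and was lower than *DxD* by -0.30 ± 0.07 (limma adjusted p = 0.012). The 5 genes with a stated chromosome are only those that fell in the rows used. Those ranked 21, 23 and 30 had *DxM* below *DxD* by limma, as had 6.21% of all genes. That ranked 30 was also higher in *DxD* than in *MxM* (0.20 ± 0.07, limma adjusted p = 0.036). Those ranked 29 and 33 had *MxM* above *DxD* by limma, as had 17.8% of all genes.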

How the data were processed

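Whole testis RNA of 12 males was measured on 1 Affymetrix array each. According to their methods, the authors obtained 1 value per gene with PLIER from the BRAINARRAY redefinition of the array (version 11), removed genes not detected in every male, and applied quantile normalization. The deposited log2 values were used unchanged. All 12 arrays held the same sorted values, with a median of 8.14. An array has no depth, and the number of arrays is among the limits on precision. Others, such as the number of probes per gene, were not examined.

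The study's cell type table was used for its first 1997 rows, and only for gene numbers, chromosomes and cell types. Ranks follow the gap. The genes and lists were chosen with earlier results of these data known. The named genes were to be the 25 with the widest gap, the 3 with the largest called difference in each direction of each contrast, and genes of lists fixed by symbol. Symbols, markers and promoters were not used here, so those lists were not run. The genes ranked 28, 29, 30, 33 and 35 were outside this rule and chosen after their values were seen.

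The 4 genotypes were fitted together, sharing their estimate of the spread, in limma (version 3.58.1; R 4.3.3). Tests were two-sided with Benjamini-Hochberg adjustment over 7000 genes, and the code was tested on simulated data. The labels do not say what replicate numbers mean. Deviations of same-numbered *DxM* and *DxD* males correlated (r = 0.754, 0.428 and 0.162, across genes). For this contrast the fit with a replicate block was therefore read beside the main fit. For *DxD* and *MxM* the values were 0.568, 0.0744 and 0.313, and for *DxM* and *MxM* 0.597, 0.207 and -0.0511. Those contrasts were read without the block. The block was fitted to all 4 genotypes together, so that it also linked same-numbered *MxM* and *MxD* males. It was not a pairing of *DxM* and *DxD* males alone. Alternatives were other gaps, centring on the autosomal median, repeated quantile normalization, adjusted t-tests with unequal or equal variances, other limma settings and each male left out. Settings for the position of *DxM* relative to both species were added after seeing the data.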

Additional observations from a re-analysis of the deposited data

How the results depend on the processing

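The rule gave 129 genes at a gap of 0.1 and 18 at 0.3, and 47 to 112 with each male left out in turn. Leaving out a male cannot narrow a gap, so the last counts could not fall below 47 and are no check of the rule. With arrays centred on the autosomal median it gave 56. A t-test with unequal variances and Benjamini-Hochberg adjustment called 2 genes between *DxD* and *MxM* (17 by limma), 1 between *DxM* and *DxD* (8) and 0 between *DxM* and *MxM* (19 by limma, and 31 at an unadjusted limma p under 0.05). The paper instead used Student's t-tests at an unadjusted P under 0.05, with the FDR estimated separately. With equal variances and the same adjustment the 3 counts were 13, 9 and 2. The count between *DxM* and *MxM* was 8 in a limma fit of only these 2 genotypes. With the dimmest 25% of genes removed, the counts between *DxD* and *MxM* and between *DxM* and *DxD* were 8 and 4 of 28 genes, against 30.5% and 11.7% of the genes left. With the replicate block 13 genes were called between *DxM* and *DxD*. For the contrasts read without the block, it gave 25 genes between *DxD* and *MxM* (all genes 44.4%, from 31.9%) and 28 between *DxM* and *MxM* (all genes 27.4%, from 16.9%). The block thus raised all 3 counts and the shares of all genes. Leaving out each male gave 12 to 19, 4 to 9 and 10 to 19 genes in the 3 contrasts. In settings chosen after seeing the data, the *DxM* mean was below both species in 25 to 33 genes with each fertile male left out. Every *DxM* male was then below both in 12 to 15, a count that could not fall below the 12 found with all males. With arrays centred on the autosomal median these counts were 31 and 11. With the dimmest genes removed they were 21 and 10, of the 28 genes that remained. The gap of ENSMUSG00000023882 was 0.70, and 0.92 without *MxD* replicate 2. The filter used the mean of all 12 males, in which 28 of the 47 genes were above the limit. The causes of the other shifts were not tested. Lists fixed by gene symbol were not run.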
